A study of Mus musculus with 30 samples.

Results

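Complement components and receptors were followed as a group of 9 genes in the *muscularis externa* (*ME*), the muscle layer of the mouse small bowel, before and after intestinal manipulation (IM), a surgical handling of the bowel. The list was fixed by name: the C1q chains *C1qa*, *C1qb* and *C1qc*, the protease *C1ra*, the components *C4b* and *C3*, the protease *Cfb*, and the anaphylatoxin receptors *C3ar1* and *C5ar1*. These are 9 of the 24601 genes in the *ME* table and of the 26179 genes in the *RiboTag* tables, and all 9 were present in both. Each of them passed the filter on low counts in every comparison but 2. The exceptions were *RiboTag* IM72h against naïve, where 8 were tested, and *RiboTag* IM72h against IM24h, where 7 were tested.

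RNA was collected from naïve mice and from mice 3 h (IM3h), 24 h (IM24h) and 72 h (IM72h) after IM, as total *ME* RNA and as *RiboTag* RNA, the RNA precipitated with tagged ribosomes. All mice carried the allele of B6N.129 Rpl22tm1.1Psam/J, which adds a tag to a ribosomal protein once Cre recombinase has acted. By the labels the *RiboTag* mice and the *ME* IM24h and IM72h mice carried B6 Tg(Sox10-icre/ERT2)388Wdr/J, an inducible Cre in cells that use the promoter of the glial gene *Sox10*, and the *ME* naïve and IM3h mice carried B6.Cg-Tg73.12Mvs/J(Gfap-cre), which is driven by a glial promoter too. The methods give male mice of 10 to 12 weeks, and tamoxifen on 3 consecutive days, 1 week before the experiment, for the inducible line. The *ME* groups held 3 naïve, 3 IM3h, 4 IM24h and 4 IM72h libraries, and the *RiboTag* groups 3, 4, 4 and 4. The line in the labels changed between *ME* IM3h and *ME* IM24h, so line and time cannot be told apart in *ME* IM24h or IM72h against naïve or IM3h, while *ME* IM3h against naïve and *ME* IM72h against IM24h were within 1 line.

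Complement is a set of plasma and tissue proteins that marks microbes and cell debris for removal and calls in leukocytes. In the classical pathway C1q binds its target and activates C1r and C1s, of which C1s cleaves C4 and C2 into an enzyme that cleaves C3. In the alternative pathway factor B joins cleaved C3 to form a further enzyme of that kind. The small fragments C3a and C5a act on their receptors on myeloid and other cells, and tissue macrophages, among them those of the gut wall, are a known source of C1q, whereas C3, C4 and factor B are also made by fibroblasts, mesothelial and epithelial cells.

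The libraries held 6603170 to 12866062 counts in the *ME* and 3010306 to 7899493 in the *RiboTag* fraction, with the lowest totals, 3010306 to 3857087, at *RiboTag* IM72h. In those 4 libraries the entry AY036118 took 58.02% to 80.08% of the counts and 8814 to 11729 genes were detected, against 2.68% to 13.98% and 17262 to 19422 genes in the *RiboTag* naïve libraries. Its share was 22.21% to 59.24% at *RiboTag* IM24h, and in the *ME* it was 16.12% to 33.49% in the naïve and IM3h libraries and 1.33% to 6.5% in those of IM24h and IM72h, a split that runs with the line. Leaving the entry out changed no call of a member between time points in the *ME*, and in the *RiboTag* fraction it took the calls at IM72h against naïve from 3 to 2, as *Cfb* then failed the filter on low counts. The glial marker *Sox10* had 486 to 1038 CPM (counts scaled to a common library size with edgeR's TMM factors, set within each fraction, as everywhere here) in the *RiboTag* naïve libraries against 14.8 to 18.7 CPM in the *ME* naïve libraries. It had 277 to 405 CPM at *RiboTag* IM3h, 38.0 to 420.02 at IM24h and 0 to 11.9 at IM72h, where its raw counts were 0 to 25. The labelled glial fraction thus held *Sox10* far above total tissue in naïve mice and at IM3h, and near 0 at IM72h. At IM24h 2 of 4 *RiboTag* libraries, at 38.0 and 53.7 CPM, were within the *ME* IM24h range of 27.2 to 70.3. The glial marker *S100b* did not follow *Sox10*, with 430 to 704 CPM in the *RiboTag* naïve libraries and 101 to 1077 at *RiboTag* IM72h (median 894, adjusted p 0.831 against naïve), against 18.8 to 25.6 in the *ME* at IM72h. The part of these levels in the results at *RiboTag* IM24h and IM72h was not tested.

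By the GENCODE vM21 annotation of mm10 the C1q genes lie side by side on the minus strand of chromosome 4 within 18675 bases, with *C1qb* at chr4:136880129-136886187, *C1qc* at chr4:136889804-136893065 and *C1qa* at chr4:136895917-136898803. *C4b* (chr17:34728380-34743882) and *Cfb* (chr17:34856374-34862518) share a stretch of chromosome 17, and *C3* lies farther along it (chr17:57203970-57228136). *Cfb* overlaps the read-through gene *Gm20547* on its own strand, so reads of the pair may have been split in counting. *C1ra* (chr6:124512405-124523443) and *C3ar1* (chr6:122847138-122856161) are on chromosome 6, and *C5ar1* (chr7:16246743-16259540) is on chromosome 7. Promoters from RefSeq (GRCm38.p6, 250 bases before to 50 after the start) matched 6 of the 9 genes, all but *C1qa*, *C4b* and *Cfb*. The promoters of *C1qb* and *C1qc*, which rose together in the *ME*, and of *C3*, which fell at IM3h, are shown 5′ to 3′ on the minus strand, at chr4:136886151-136886450, chr4:136892865-136893164 and chr17:57228087-57228386. Capitals mark the letters GAGGAA, a purine-rich core of ETS factor motifs, or TTGCNNAA, a C/EBP motif, on either strand.
C1qb: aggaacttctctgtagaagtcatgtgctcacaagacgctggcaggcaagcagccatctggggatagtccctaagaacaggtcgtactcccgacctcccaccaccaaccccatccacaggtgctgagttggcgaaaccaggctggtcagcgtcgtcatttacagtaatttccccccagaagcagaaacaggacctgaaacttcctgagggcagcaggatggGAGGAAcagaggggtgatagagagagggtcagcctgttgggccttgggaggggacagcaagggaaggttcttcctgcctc
C1qc: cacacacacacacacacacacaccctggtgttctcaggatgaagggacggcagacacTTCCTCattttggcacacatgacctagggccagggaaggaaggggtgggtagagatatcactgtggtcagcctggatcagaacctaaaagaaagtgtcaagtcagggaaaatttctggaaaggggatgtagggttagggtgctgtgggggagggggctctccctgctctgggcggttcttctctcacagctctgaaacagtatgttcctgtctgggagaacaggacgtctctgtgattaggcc
C3: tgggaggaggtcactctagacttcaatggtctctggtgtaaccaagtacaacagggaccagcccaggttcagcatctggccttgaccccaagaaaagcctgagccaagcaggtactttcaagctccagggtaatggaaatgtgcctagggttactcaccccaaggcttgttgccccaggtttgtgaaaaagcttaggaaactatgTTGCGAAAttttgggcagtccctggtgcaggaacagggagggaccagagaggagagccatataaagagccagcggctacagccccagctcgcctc

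Both C1q promoters held GAGGAA (on the opposite strand in *C1qc*, where it reads TTCCTC) and no TTGCNNAA, and the *C3* promoter held TTGCNNAA and no GAGGAA. Among all 32851 RefSeq promoters of this length GAGGAA was found in 28.3% and TTGCNNAA in 10.8%. The *C1ra* promoter held both. Of the other motifs searched on both strands, an NF-kB motif (in 20.7% of all promoters) occurred in *C1qb*, *C1qc* and *C3*, TTCNNNGAA (STAT, in 8.3%) in *C1ra*, and an IRF motif (in 3.44%) in none of the 6. None of the 5 motifs was found in the windows of *C3ar1* and *C5ar1*. Such matches describe the letters only.

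Against naïve mice, the first question of the design, the *ME* showed an early fall of *C3*, *C4b* and *Cfb* with a rise of both receptors, followed by a rise of the C1q chains. A gene was called at an adjusted p under 0.05 in edgeR's quasi-likelihood test with Benjamini-Hochberg adjustment over all genes tested, and adjusted p has this meaning throughout. In the *ME* at IM3h 2 of the 9 were higher and 3 lower, where 19.3% of all genes tested were called higher and 13.4% lower. The median log2 fold change of the 9 was -0.23 against 0.00071 for all genes. At IM24h 6 were higher and none lower (15.6% of all genes higher), with a median of 1.15 against 0.021, and at IM72h 7 were higher and none lower (29.3% of all genes higher), with a median of 2.29 against 0.023. Fewer cells of a type and less RNA per cell cannot be told apart in such libraries, in either direction.

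In the *RiboTag* fraction 1 of the 9 was called at IM3h, lower, where 4.44% of all genes were called lower, and the median was -0.75 against -0.041 for all genes. At *RiboTag* IM24h edgeR called 0 of 9 (0.497% of all genes in either direction), although 3 had an unadjusted p under 0.05 and DESeq2 called 2. At *RiboTag* IM72h 1 was higher and 2 lower of 8 tested, where 1.05% of all genes were called higher and 15.1% lower. The median there was -2.86 against -0.40 for all genes, or -2.45 with *Cfb* and *C1ra*, which had at most 2 counts in any of these 4 libraries, set to 3 counts per library. It was -4.45 with the library total and -4.37 with reference gene scaling, where the median of all genes was -2.13 and -2.07, and -1.64 over the 7 tested with AY036118 left out. The libraries of the 2 groups did not overlap for 6 members in the *ME* at IM3h (48.2% of all genes), 5 at IM24h (40.9%) and 7 at IM72h (58.8%). For the *RiboTag* groups this held for 1 member at IM3h (29.9%), for 4 at IM24h (21.6%) and for 5 at IM72h (30.9%). The share of members apart from naïve was thus above the share of all genes in the *ME* at each time point. In the *RiboTag* fraction it was below that share at IM3h and above it at IM24h and IM72h.

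**Figure D1:**
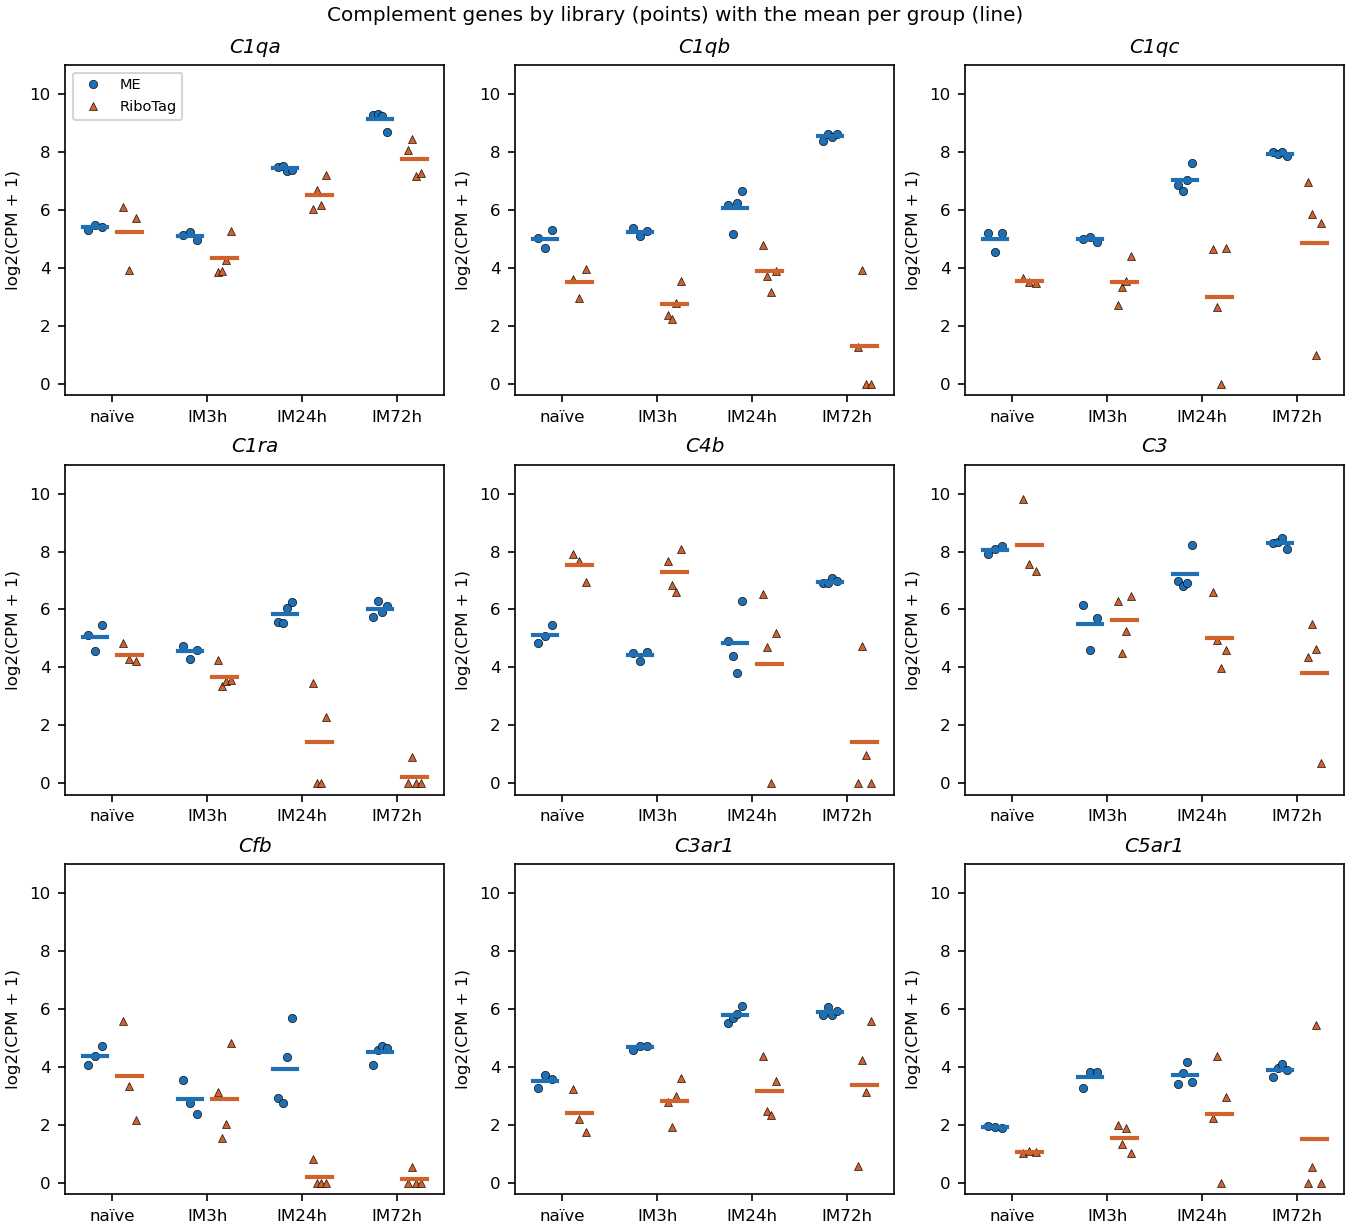
Level of each of the 9 complement genes in every library, as log2(CPM + 1) on the vertical axis against the group on the horizontal axis, with circles for *ME*, triangles for *RiboTag* and a line at the mean of the plotted values. The C1q genes of the *ME* climb from naïve to IM72h, and the *RiboTag* IM72h libraries spread widely or sit at 0 for most genes. *C3* drops at IM3h in both fractions and rises again after it only in the *ME*.

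*C1qa* codes for the A chain of C1q, the recognition protein of the classical pathway. In the *ME* its naïve libraries had 38.6, 43.3 and 41.5 CPM, IM3h had 34.0, 37.2 and 30.3, IM24h had 179, 182, 163 and 166, and IM72h had 620.3, 638, 603 and 413. The IM24h and IM72h groups lay apart from naïve and from each other, and the group means came to 41.1 ± 2.38, 33.8 ± 3.47, 172 ± 9.24 and 569 ± 104 CPM (SD). *C1qa* rose at IM24h by 2.06 on the log2 scale (SE 0.15, adjusted p 3.28e-05) and at IM72h by 3.76 (SE 0.18, adjusted p 2.76e-07). Each of the later steps passed the test as well, at 2.39 from IM3h to IM24h (adjusted p 2.47e-05) and 1.69 from IM24h to IM72h (adjusted p 4.19e-05). All IM3h libraries were below all naïve ones, but the difference of -0.23 (adjusted p 0.215) did not pass, and with scaling to *Actb*, *Hsp90ab1* and *Rplp1* it was -0.64 (adjusted p 0.00469).

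*C1qb* and *C1qc*, the other chains of the molecule, followed. For *C1qb* the *ME* naïve libraries had 31.7, 25.0 and 38.1 CPM, IM24h had 71.8, 34.8, 75.1 and 101, and IM72h had 332, 396, 369 and 389.7. Library 2 of IM24h sat within the naïve range, whereas every IM72h library was far above it. *C1qb* rose at IM24h by 1.15 (SE 0.32, adjusted p 0.0215) and at IM72h by 3.52 (SE 0.16, adjusted p 2.67e-07). The IM24h call was lost without naïve library 1 (adjusted p 0.0790) or 2 (adjusted p 0.100), and with the reference gene scaling (0.89, adjusted p 0.246). For *C1qc* the naïve libraries had 35.9, 22.4 and 36.1 CPM, IM24h had 115, 99.3, 129 and 198, and IM72h had 254, 241, 256 and 234. Naïve, IM24h and IM72h did not overlap, and *C1qc* rose at IM24h by 2.10 (SE 0.28, adjusted p 0.000569) and at IM72h by 2.92 (SE 0.17, adjusted p 5.41e-07). At IM3h neither chain passed the test, with 0.27 (adjusted p 0.258) for *C1qb* and 0.0069 (adjusted p 0.981) for *C1qc*.

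The later step had different values for the chains, a difference that was not tested. From IM24h to IM72h *C1qb* rose by 2.36 (SE 0.27, adjusted p 0.000102) and *C1qc* by 0.83 (SE 0.20, adjusted p 0.00704), a step that the reference gene scaling reduced to 0.49 (adjusted p 0.374) for *C1qc*. Of the CPM summed over the chains, *C1qb* made up 27.6% to 32.9% in the *ME* naïve libraries, 11.03% to 21.7% at IM24h and 27.5% to 37.6% at IM72h. The ranges of naïve and IM24h did not overlap, and the IM72h range covered that of naïve. The sum itself was 90.6 to 116 CPM in naïve, 96.9 to 105 at IM3h, 316 to 465 at IM24h and 1037 to 1275 at IM72h, so the *ME* held its highest C1q level at the last time point.

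**Figure D2:**
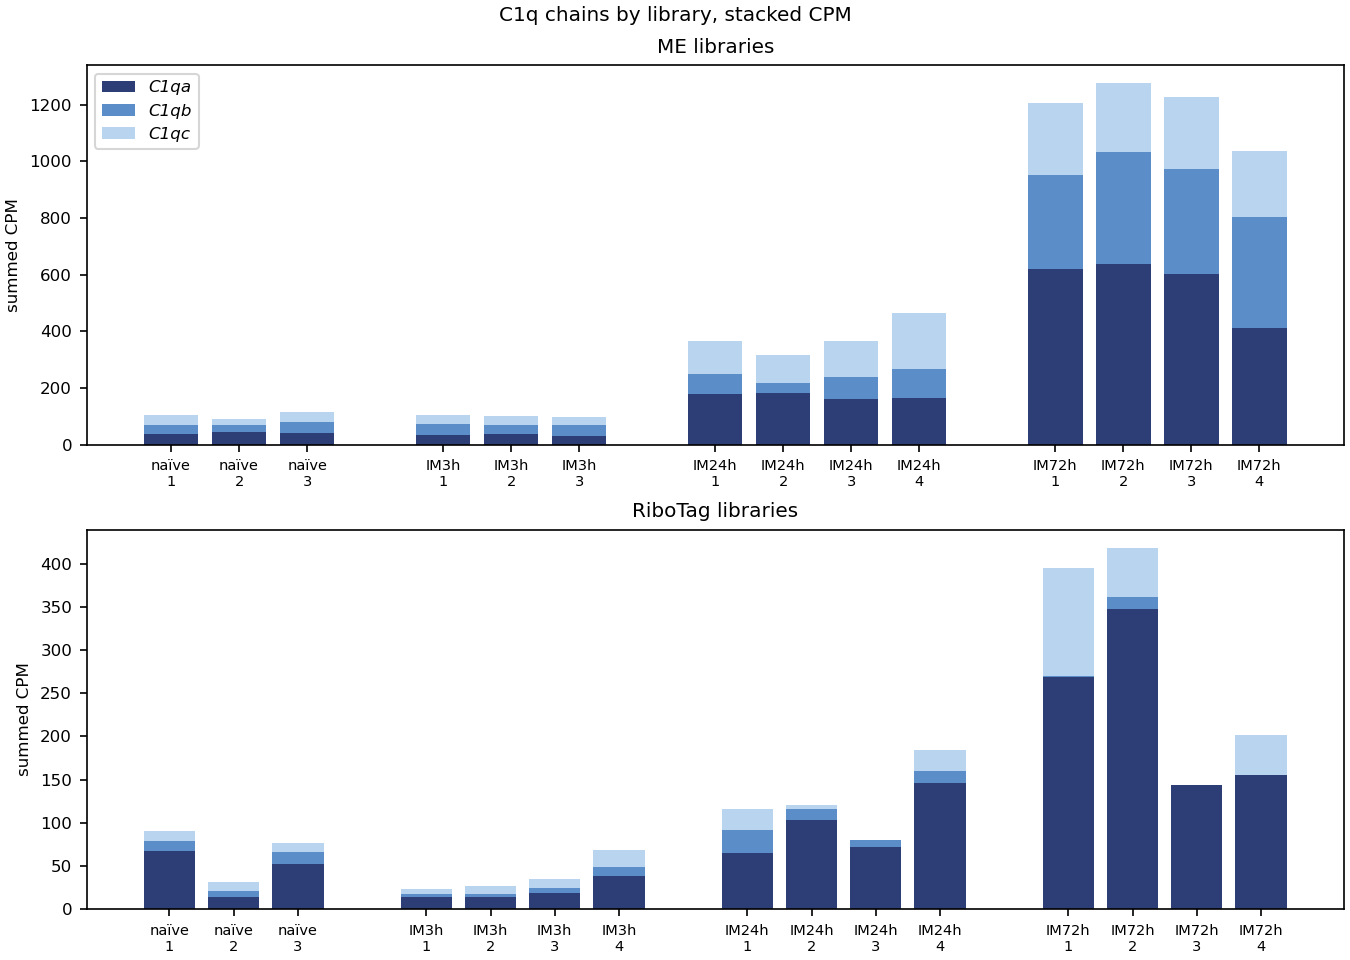
Summed CPM of the C1q chains on the vertical axis for each library on the horizontal axis, *ME* above and *RiboTag* below with separate scales, stacked by chain. In the *ME* the sum reaches 1037 to 1275 at IM72h with all chains in the stack, whereas in the *RiboTag* IM72h libraries *C1qa* fills 68.1% to 99.3% of it and *C1qb* at most 3.36%.

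The *RiboTag* naïve libraries had 67.2, 14.2 and 51.7 CPM of *C1qa*, IM3h had 13.4, 13.8, 18.5 and 37.9, IM24h had 65.2, 103, 71.8 and 146, and IM72h had 269, 347, 143 and 155, in libraries with *Sox10* at 0 to 11.9 and *S100b* at 101 to 1077 CPM. Naïve library 2 was low and in the range of IM3h, and all IM72h libraries were above all naïve ones. *C1qa* rose at IM72h by 2.38 (SE 0.68, adjusted p 0.0397), and between IM3h and IM24h by 2.26 (SE 0.47, adjusted p 0.0287), where it was 1 of 9 called (1.9% of all genes in either direction). The IM72h call was lost without IM72h library 1 or 2 or any of the naïve libraries (adjusted p 0.0598 to 0.164). It was also lost under library total scaling (0.73, adjusted p 0.563), reference gene scaling (0.80, adjusted p 0.444) and no filter (2.29, adjusted p 0.149). The IM24h step was lost without IM24h library 2 or 4 or IM3h library 1, 2 or 3 (adjusted p 0.0714 to 0.125). It was lost too under library total scaling (1.51, adjusted p 0.248), under reference gene scaling (1.20, adjusted p 0.362) and with the most abundant transcript (2.31, adjusted p 0.0718). At *RiboTag* IM3h *C1qa* was at -1.03 (SE 0.50, adjusted p 0.215), and without IM3h library 4 it passed the test as a fall (-1.49, adjusted p 0.0477). The other chains did not pass the test at IM72h. *C1qb* had 11.2, 6.78 and 14.6 CPM in naïve and 1.43, 14.1, 0 and 0 at IM72h (-1.51, SE 1.82, adjusted p 0.783), and *C1qc* had 11.6, 10.4 and 10.2 in naïve and 125, 57.2, 0.96 and 46.2 at IM72h (2.41, SE 1.32, adjusted p 0.363), which passed without IM72h library 3 (2.74, adjusted p 0.0475).

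Macrophage genes were read beside C1q in the *ME*. Of the 12 on the marker list, 5 were higher at IM24h (15.6% of all genes) and 10 at IM72h (29.3% of all genes), and their summed level was 209 to 251 CPM in naïve, 188 to 248 at IM3h, 297 to 1011 at IM24h and 592 to 724 at IM72h. *Adgre1* had 10.3 to 12.2 CPM in naïve, 7.81 to 10.2 at IM3h, 24.7 to 62.8 at IM24h and 54.0 to 71.7 at IM72h. *Csf1r* had 43.6 to 46.9, 32.6 to 35.0, 29.0 to 72.9 and 80.8 to 121, and *Cx3cr1* had 18.7 to 25.4, 4.57 to 4.93, 20.3 to 38.8 and 69.6 to 78.4 CPM at the same time points. *Csf1r* and *Cx3cr1* were thus lower at IM3h (adjusted p 0.0275 and 6.09e-05), overlapped naïve at IM24h and were above it at IM72h. At IM3h, where none of the C1q genes was called with TMM scaling, 2 of the 12 were higher and these 2 lower (19.3% and 13.4% of all genes). In the *RiboTag* fraction the macrophage list summed to 92.0 to 149.7 CPM in naïve and 92.8 to 273 at IM72h. There 1 of 9 tested was called, lower (15.1% of all genes lower), and 3 of the 12 were at 0 in all 4 libraries, while *Csf1r* was present in every *RiboTag* group at 26.0 to 68.3 CPM. The part of these cells in the C1q values was not tested.

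*C1ra* codes for the protease C1r of the C1 complex. Its *ME* naïve libraries had 33.5, 22.6 and 43.0 CPM, IM24h had 46.7, 44.9, 65.9 and 74.6, and IM72h had 51.9, 76.7, 59.0 and 68.4. At IM3h it had 25.9, 18.7 and 23.4 (-0.50, adjusted p 0.118), which passed as a fall without naïve library 2 (-0.70, adjusted p 0.0290), with the reference gene scaling (-0.92, adjusted p 0.0167) and with the library total (-0.79, adjusted p 0.0459). The lowest IM24h library was only just above the highest naïve one, and *C1ra* rose by 0.80 at IM24h (SE 0.26, adjusted p 0.0427) and by 0.91 at IM72h (SE 0.20, adjusted p 0.00286). The IM24h call was lost without IM24h library 3 or 4 or naïve library 1 or 2 (adjusted p 0.0572 to 0.169), and with the reference gene scaling the values were 0.50 (adjusted p 0.457) and 0.31 (adjusted p 0.327). *C1ra* was also higher at IM24h than at IM3h (1.39, adjusted p 0.00213), and IM24h and IM72h did not differ beyond the spread (0.11, adjusted p 0.696). Its *RiboTag* libraries had 27.3, 18.6 and 17.4 CPM in naïve, 9.95, 0, 0 and 3.82 at IM24h and 0, 0.88, 0 and 0 at IM72h, where *Sox10* was 0 to 11.9 and *S100b* 101 to 1077 CPM. That is 2 counts at IM72h against 527 in naïve, a CPM ratio of 0.0136 (exact 95% interval 0.00164 to 0.0492, counting error only), with an adjusted p of 0.0564 that fell to 0.0190 without IM72h library 2, the only one with counts, to 0.00120 in DESeq2, and to between 0.0162 and 0.0304 under library total and reference gene scaling and with the most abundant transcript.

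*C4b* codes for C4, which is cleaved on the way to C3. It fell at IM3h and was highest at IM72h in the *ME*. The naïve libraries had 27.6, 32.5 and 43.1 CPM, IM3h had 21.7, 17.7 and 22.3, IM24h had 28.7, 19.8, 13.1 and 76.6, and IM72h had 119, 119, 133 and 124. IM3h lay below naïve, IM72h lay above every other group, and IM24h spread from below the naïve range to above it. *C4b* fell by 0.70 at IM3h (SE 0.19, adjusted p 0.0204), a call lost without IM3h library 2 (adjusted p 0.0556) or naïve library 3 (adjusted p 0.0656), and rose at IM72h by 1.82 (SE 0.16, adjusted p 4.77e-06). Within *RiboTag* RNA *C4b* was among the higher members in naïve mice, at 243, 205 and 124 CPM, and at IM3h, at 201, 115, 95.1 and 272. It had 90.9, 24.9, 0 and 35.5 CPM at IM24h (-2.27, adjusted p 0.291) and 0, 25.5, 0.96 and 0 at IM72h beside *Sox10* at 0 to 11.9 and *S100b* at 101 to 1077 CPM (-4.86, SE 1.57, adjusted p 0.0642). IM72h library 2 had 58 counts of *C4b* and each other IM72h library at most 1, so the fitted value rests mostly on that library. *C4b* was called at IM72h without library 2 (adjusted p 0.0190), in DESeq2 (adjusted p 0.0357), under library total scaling (adjusted p 0.0369) and under reference gene scaling (adjusted p 0.0244). Reads of *C4b* can be shared with its near-identical neighbour *C4a*, which had 0 to 3 counts in each *ME* naïve library and 4 to 156 at IM24h and IM72h. In the *RiboTag* libraries *C4a* had 0 to 105 counts in naïve, 0 to 195 at IM3h, 0 to 49 at IM24h and 0 to 37 at IM72h. The *C4b* values of both fractions carry that uncertainty, as do those of *C1ra* beside its copy *C1rb* (0 to 5 counts in any *ME* library).

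*C3* codes for the protein on which all pathways meet, and it fell at IM3h in both fractions. In the *ME* the naïve libraries had 242, 269.9 and 290.2 CPM and IM3h had 70.3, 23.5 and 50.5, so that *C3* fell by 2.42 on the log2 scale (SE 0.31, adjusted p 0.000266) with no overlap. The *RiboTag* naïve libraries had 898, 187 and 158 CPM and IM3h had 76.7, 21.7, 36.8 and 87.1, and it fell by 2.85 (SE 0.61, adjusted p 0.00972), again with no overlap. Naïve *RiboTag* library 1 was far above the other naïve libraries, and without it the call was lost (-1.57, adjusted p 0.0641). The falls in the 2 fractions differed by -0.33 on the log2 scale (SE 1.03, adjusted p 0.999965).

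The change of *C3* at IM72h differed between the fractions (by -4.40, SE 1.05, adjusted p 0.00403, for *RiboTag* minus *ME*). The *ME* IM24h libraries had 126, 111, 121 and 301 CPM and the IM72h libraries 317, 319, 354 and 273, so that library 4 of IM24h stood apart from the others and IM72h was back in or above the naïve range. At IM24h *C3* did not pass the test (-0.70, SE 0.33, adjusted p 0.137), but it was lower than naïve without library 4 (-1.17, adjusted p 0.000161). At IM72h it was at 0.21 (SE 0.12, adjusted p 0.169), a sign that turned with the reference gene scaling (-0.40, adjusted p 0.0440) and that passed the test as a rise with the library total (0.81, adjusted p 0.000882) and without IM72h library 4 (0.27, adjusted p 0.0496). *RiboTag* RNA held *C3* at 96.9, 29.8, 14.6 and 23.1 CPM at IM24h (-3.28, SE 0.73, adjusted p 0.0660) and 19.5, 44.4, 24.01 and 0.62 at IM72h, the latter beside *Sox10* at 0 to 11.9 and *S100b* at 101 to 1077 CPM. Every one of these libraries was below every naïve library. *C3* fell by 4.21 at *RiboTag* IM72h (SE 1.08, adjusted p 0.0273), a call lost without naïve library 1 (-3.00, adjusted p 0.160) or IM72h library 1 or 3 (adjusted p 0.0591 and 0.0539). It was lost as well with no filter (adjusted p 0.148) and with the most abundant transcript (adjusted p 0.0755). The IM24h difference passed the test without IM24h library 1 (-4.16, adjusted p 0.0123), in DESeq2 (adjusted p 0.000483) and with no filter (adjusted p 0.00639).

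*Cfb* codes for factor B, the protease of the alternative pathway. In the *ME* the naïve libraries had 15.8, 19.8 and 25.2 CPM, IM3h had 10.6, 5.76 and 4.16, IM24h had 6.50, 5.80, 19.1 and 50.6, and IM72h had 15.6, 23.0, 25.6 and 24.2. All IM3h libraries were below naïve, IM24h ran from below to above it, and IM72h overlapped it. *Cfb* fell by 1.504 at IM3h (SE 0.33, adjusted p 0.00648) and did not pass at IM24h (0.013, SE 0.65, adjusted p 0.990) or IM72h (0.095, SE 0.20, adjusted p 0.708), where it passed as a rise with the library total (0.69, adjusted p 0.0180). *RiboTag* libraries had *Cfb* at 46.6, 9.04 and 3.44 CPM in naïve and 7.73, 1.91, 3.02 and 27.6 at IM3h (-0.92, SE 0.92, adjusted p 0.591). The IM24h libraries had 0.755, 0, 0 and 0 CPM, and those of IM72h, with *Sox10* at 0 to 11.9 and *S100b* at 101 to 1077 CPM, had 0, 0.44, 0 and 0. The naïve libraries differed widely among themselves, and only 1 of 4 libraries had any count at each of the later time points. At IM72h this was 1 count against 476 in naïve, a CPM ratio of 0.0075 (exact 95% interval 0.00019 to 0.0420, counting error only) with an adjusted p of 0.0463, which rose to between 0.0587 and 0.151 without IM72h library 1, 3 or 4 or naïve library 2 or 3, and was 0.148 with no filter. At IM24h the adjusted p was 0.115, and 0.00202 in DESeq2.

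Most listed genes of the mesothelium, the lining of the outer bowel surface, were lower in the *ME* at IM3h, as *C3* and *Cfb* were. Of the list of 9 genes 8 were tested in the *ME* at IM3h and 7 were lower (13.4% of all genes). At IM24h 2 of 9 were lower (13.4% of all genes), and at IM72h 7 of 9 were (28.3% of all genes). The summed level went from 161 to 201 CPM in naïve to 17.3 to 69.2 at IM3h, 11.7 to 142 at IM24h and 46.4 to 115 at IM72h. *Msln* had 8.19 to 18.3 CPM at IM72h and overlapped its naïve range of 17.3 to 24.8. *ME* IM24h library 4 was the highest of its group for every member but *C1qa* and *C5ar1*. It was also the highest for the summed mesothelium (142 CPM), macrophage (1011 CPM), fibroblast (4263 CPM), smooth muscle, adipocyte, epithelial and glial lists. In the *RiboTag* fraction the mesothelium list summed to 316, 138 and 121 CPM in naïve libraries 1, 2 and 3, in the same order as *C3* and *Cfb*. The macrophage (149.7, 99.97 and 92.0 CPM) and neutrophil (5.72, 2.37 and 1.54 CPM) lists had that order too. The mesothelium list summed to 12.7 to 75.6 CPM at IM3h, with 5 of 8 tested lower (4.44% of all genes). It summed to 0 to 117 at IM24h and 0 to 65.5 at IM72h, where 4 of the 9, *Upk3b* and *Upk1b* among them, were at 0 in every library. *RiboTag* IM24h library 1 was the highest of its group for *C3*, *C4b*, *Cfb*, *C1ra*, *C1qb* and *C3ar1*. It was also the highest for *Sox10* (420.02 CPM) and for the mesothelium (117 CPM), fibroblast (1497 CPM), smooth muscle, neuronal and glial lists, and had the lowest AY036118 share of its group (22.21%). Of the fibroblast list 6 of 8 tested were lower in the *ME* at IM3h, with sums of 2905 to 3057 CPM in naïve and 1426 to 1657 at IM3h. The sum was 1879 to 4263 CPM at IM24h and 4559 to 5387 at IM72h, above naïve, when 5 of 9 were higher and 1 lower. Within *RiboTag* RNA it went from 1046 to 1324 CPM in naïve to 405 to 599.6 at IM3h, with 4 of 9 lower (4.44% of all genes), and was 693 to 1931 at IM72h. The part of these cells in the *C3* and *Cfb* values was not tested.

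**Figure D3:**
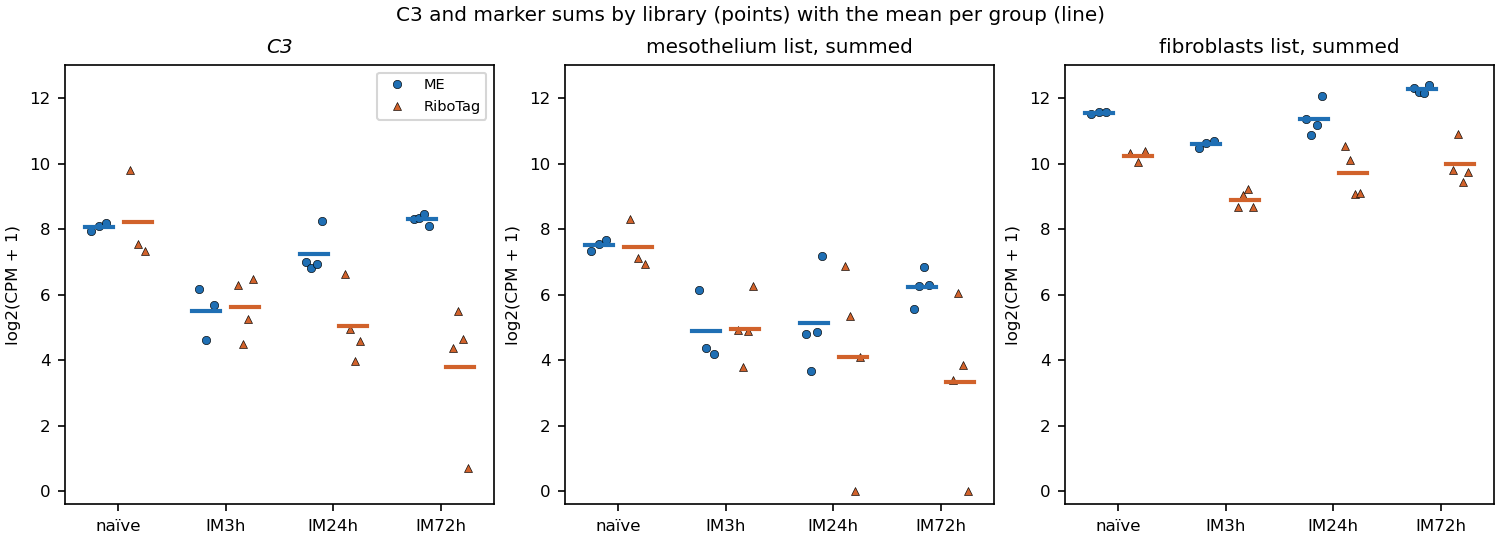
*C3* on the left, and the summed mesothelium and fibroblast lists beside it, as log2(CPM + 1) per library against the group, with circles for *ME*, triangles for *RiboTag* and a line at the mean of the plotted values. *C3* and the mesothelium list both drop from naïve to IM3h in each fraction, and in the *ME* *C3* is back at 273 to 354 CPM at IM72h while the mesothelium list stays at 46.4 to 115 CPM.

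*C3ar1* and *C5ar1* code for the receptors of the fragments C3a and C5a. In the *ME* *C3ar1* had 8.58, 12.1 and 10.9 CPM in the naïve libraries, while IM3h had 22.8, 25.4 and 25.6, IM24h had 45.1, 50.3, 55.6 and 67.3, and IM72h had 54.8, 65.3, 55.0 and 60.4. Naïve, IM3h and the later time points formed separate ranges, and IM24h and IM72h overlapped. *C3ar1* rose by 1.28 at IM3h (SE 0.18, adjusted p 0.000508), 2.38 at IM24h (SE 0.21, adjusted p 9.76e-05) and 2.47 at IM72h (SE 0.15, adjusted p 6.79e-07), and by 1.19 from IM3h to IM24h (adjusted p 0.00142), while the last step of 0.076 did not pass (adjusted p 0.720). *C5ar1* was lower throughout, at 2.90, 2.80 and 2.66 CPM in naïve, and IM3h had 8.60, 13.1 and 13.1, IM24h 9.70, 12.8, 17.1 and 10.2, and IM72h 11.6, 14.5, 15.9 and 13.8. All later libraries lay above naïve and overlapped each other. It rose by 2.10 at IM3h (SE 0.28, adjusted p 0.000319), 2.15 at IM24h (SE 0.33, adjusted p 0.00113) and 2.29 at IM72h (SE 0.20, adjusted p 6.12e-06), and the steps of 0.14 and 0.13 between the IM time points did not pass (adjusted p 0.744 and 0.678). Of the monocyte list 5 of 5 tested genes were higher at IM3h (19.3% of all genes), 6 of 7 at IM24h (15.6%) and 7 of 7 at IM72h (29.3%), with sums of 34.9 to 41.3 CPM in naïve, 52.7 to 109 at IM3h, 252 to 335 at IM24h and 167 to 194 at IM72h. Of the neutrophil list 3 of 4 tested were higher at IM3h, 5 of 6 at IM24h and 5 of 6 at IM72h, with sums of 1.94 to 2.90 CPM in naïve, 26.4 to 35.0 at IM3h, 47.5 to 218 at IM24h and 21.1 to 59.0 at IM72h. The part of these cells in the receptor values was not tested.

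In *RiboTag* RNA *C3ar1* did not pass the test at any time point, and *C5ar1* did not at IM3h or IM24h and was not tested at IM72h, where it failed the filter on low counts. *C3ar1* had 8.51, 3.61 and 2.37 CPM in naïve, IM24h had 19.9, 4.50, 3.99 and 10.5, and IM72h had 0.475, 18.0, 7.68 and 46.8, with differences of 0.52, 1.06 and 1.93 (adjusted p 0.703, 0.797 and 0.680) at the successive time points. *C5ar1* had 1.02, 1.13 and 1.07 CPM in naïve, and IM3h had 2.94, 1.53, 2.67 and 1.03, IM24h 3.65, 19.6, 0 and 6.68, and IM72h 0, 0.44, 42.2 and 0, so that 1 library of the last group, where *Sox10* was 0 to 11.9 and *S100b* 101 to 1077 CPM, held nearly all of it. Its differences were 0.98 (SE 1.17, adjusted p 0.666) at IM3h and 2.81 (SE 1.71, adjusted p 0.547) at IM24h. The SE of the *C3ar1* differences was 0.70 to 1.75 here and 0.15 to 0.21 in the *ME*.

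**Figure D4:**
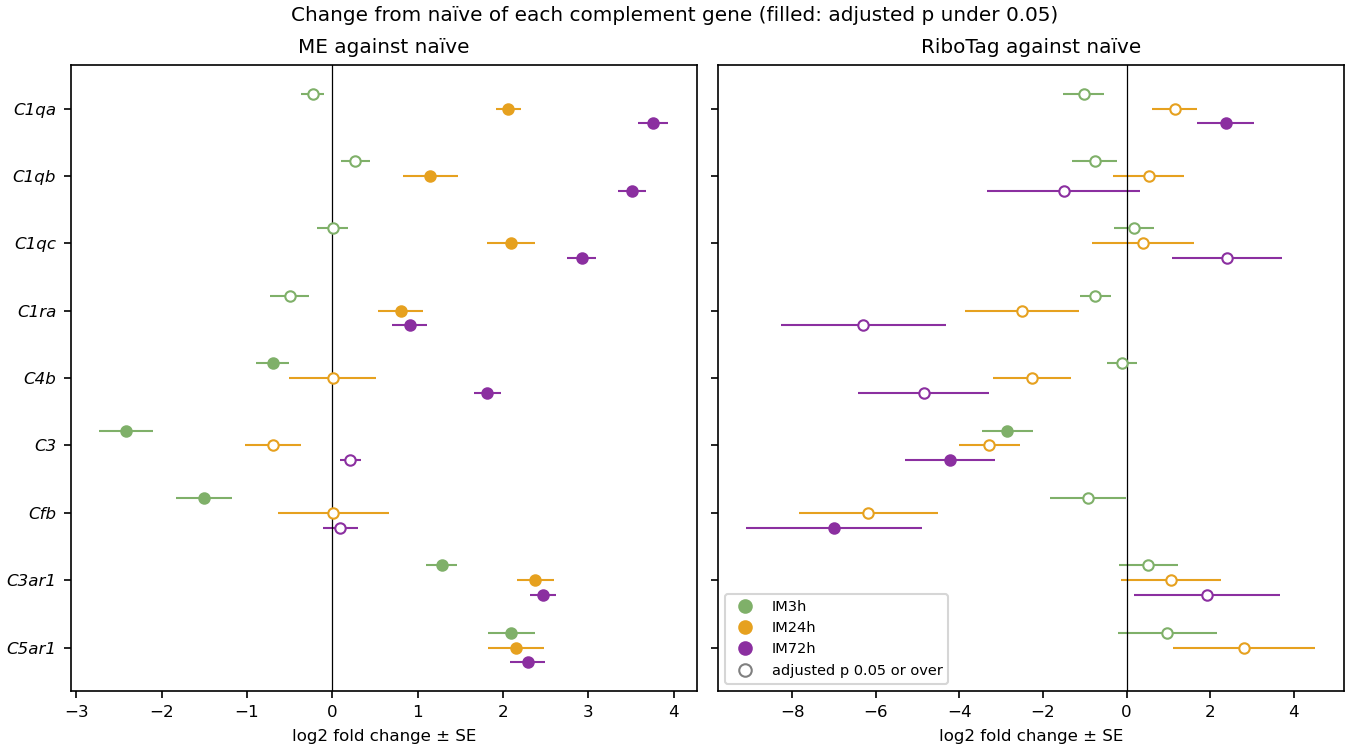
Log2 fold change from naïve with its SE on the horizontal axis for each gene on the vertical axis, *ME* on the left and *RiboTag* on the right with separate scales, coloured by time point and filled where the adjusted p was under 0.05. *C3* lies at -2.42 and -2.85 at IM3h in the *ME* and *RiboTag* fractions, and the *RiboTag* values of *Cfb* and *C1ra* at IM72h rest on 1 and 2 counts and depend on the prior count of the fit.

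Between neighbouring time points the *ME* calls were all rises. From IM3h to IM24h 6 of 9 were higher and none lower (14.2% of all genes higher), the C1q chains, *C1ra*, *C3* and *C3ar1*, with a median log2 fold change of 1.39 against 0.042 for all genes. From IM24h to IM72h 5 of 9 were higher and none lower (18.6% of all genes higher), the C1q chains, *C3* and *C4b*, with a median of 0.83 against 0.0073. *C3* rose by 1.81 (SE 0.45, adjusted p 0.0134) and then by 0.91 (SE 0.29, adjusted p 0.0306), and *C4b* rose in the later step by 1.82 (SE 0.44, adjusted p 0.00739). The first of these was lost without IM3h library 2 or 3 (adjusted p 0.0503 and 0.0510), and the later *C3* step without IM24h library 1, 2 or 3 or IM72h library 1, 2 or 3 (adjusted p 0.0581 to 0.0879). The *C1qb* step from IM3h to IM24h (0.97, adjusted p 0.0366) was lost without IM24h library 1 or 3 or any of the IM3h libraries (adjusted p 0.0679 to 0.136). With reference gene scaling *C1qa* and *C1qc* kept the call from IM3h to IM24h, and *C1qb* (1.03, adjusted p 0.191), *C1ra* (1.41, adjusted p 0.0570), *C3* (1.92, adjusted p 0.0786) and *C3ar1* (1.19, adjusted p 0.0631) lost it at fold changes near those with TMM. From IM24h to IM72h *C1qa* and *C1qb* kept theirs under that scaling, and *C1qc*, *C3* (0.50, adjusted p 0.476) and *C4b* (1.37, adjusted p 0.129) lost it. *Cfb* was higher at IM24h than at IM3h by 1.62 (adjusted p 0.126), which passed in DESeq2 (adjusted p 0.0494) and with the library total (adjusted p 0.0198). Without *ME* IM24h library 4 *Cfb* was higher at IM72h than at IM24h (1.05, adjusted p 0.0493). For *RiboTag* RNA from IM24h to IM72h edgeR called 0 of 7 tested (0% of all 9344 genes), with 1 at an unadjusted p under 0.05 and 0 in DESeq2.

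*RiboTag* and *ME* RNA were also compared at each time point, over the genes listed in both fractions and all 29 libraries. In naïve mice edgeR called 0 of 9 (0.555% of all genes in either direction), with 1 at an unadjusted p under 0.05, *C4b*, which was higher in the *RiboTag* fraction by 2.72 (SE 1.08, adjusted p 0.355), and 0 in DESeq2. Fitted on only the groups compared, an alternative chosen after seeing the data, edgeR called *C4b* (2.83, adjusted p 0.000396), *C1qb* (-1.19, adjusted p 0.0273) and *C1qc* (-1.20, adjusted p 0.0122) in naïve mice. At IM3h it called 0 of 9 (2.25% of all genes), with 2 at an unadjusted p under 0.05 and 2 in DESeq2. These were *C1qb* (-2.23, SE 0.69, adjusted p 0.0885) and *C4b* (3.41, SE 1.09, adjusted p 0.103) at the unadjusted p. On only the groups compared *C4b* (3.44, adjusted p 0.000451), *C1qb* (-2.21, adjusted p 0.00351), *C5ar1* (-2.12, adjusted p 0.0145) and *C3ar1* (-1.49, adjusted p 0.0318) were called at IM3h. The 2 fractions came from different lines by the labels at these time points, and fraction and line cannot be told apart. At IM24h 4 of 9 were lower in the *RiboTag* fraction (8.49% of all genes lower), *C1qc* at -2.95 (SE 0.78, adjusted p 0.0113), *Cfb* at -5.84 (SE 1.17, adjusted p 0.00122), *C1ra* at -3.62 (SE 0.80, adjusted p 0.00306) and *C3ar1* at -2.13 (SE 0.73, adjusted p 0.0455). The *Cfb* value rests on 6 counts in 1 of the 4 *RiboTag* libraries, of which 2 had *Sox10* within the *ME* range, and *C3ar1* lost its call without any 1 of the *ME* IM24h libraries or of *RiboTag* IM24h libraries 2, 3 and 4 (adjusted p 0.0639 to 0.107). *C1qb* had -1.86 (adjusted p 0.0502) at IM24h. It passed in DESeq2 (-2.06, adjusted p 0.00112), with AY036118 left out (-1.95, adjusted p 0.0393) and under each of the other scalings. At IM72h 5 of 9 were lower (28.8% of all genes lower), *C1qb*, *C3*, *C4b*, *Cfb* and *C1ra*, of which *C4b* lost the call when only the groups compared were fitted (-3.75, adjusted p 0.117). *C1qa* had -0.51 (adjusted p 0.413) at IM24h and -0.99 (adjusted p 0.0519) at IM72h. Reference gene scaling made both pass (-1.58, adjusted p 0.0192, and -1.90, adjusted p 0.00155). The IM72h value also passed without *RiboTag* IM72h library 2 (-1.28, adjusted p 0.0167), in DESeq2 (adjusted p 0.0388) and with AY036118 left out (adjusted p 0.0332). It passed with no filter as well (adjusted p 0.0484) and with the library total (-2.47, adjusted p 0.000169). *C1qc* had -1.79 (adjusted p 0.0533) at IM72h. It passed without *RiboTag* IM72h library 1 (-2.47, adjusted p 0.0140), in DESeq2 (adjusted p 0.0416), with AY036118 left out (adjusted p 0.0456) and with library total and reference gene scaling (adjusted p 0.00434 and 0.0120).

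At the looser threshold of the study (unadjusted p under 0.05 and over 2-fold) 3 members were called in *RiboTag* IM24h against naïve (12.5% of all genes), 5 in *RiboTag* IM72h against naïve (22.5%), 3 in *RiboTag* IM24h against IM3h (14.1%) and 1 in *RiboTag* IM72h against IM24h (6.27%). It called 3 in *ME* IM72h against IM24h (25.2%), 1 and 2 in *RiboTag* against *ME* in naïve mice (9.36%) and at IM3h (13.2%), and 3 in the difference of responses at IM24h (11%). The shares of *ME* IM72h against IM24h and of *RiboTag* against *ME* in naïve mice were near those of all genes.

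The change from naïve was then compared between the fractions, which asks whether the *RiboTag* response differed from that of the whole tissue. At IM3h edgeR called 0 of 9 (0.0204% of all genes), with 0 at an unadjusted p under 0.05 and 0 in DESeq2. At IM24h it called 0 of 9 (0.301% of all genes), with 3 at an unadjusted p under 0.05, *Cfb*, *C1ra* and *C3*, and 2 in DESeq2. Without *RiboTag* IM24h library 1 *Cfb* and *C1ra* were called (adjusted p 0.0126 and 0.0301). At IM72h 5 of 9 differed, all with the lower value in the *RiboTag* fraction, where 14.4% of all genes did. *C1qb* had a difference of -4.85 (SE 1.04, adjusted p 0.00177), *C3* of -4.40 (SE 1.05, adjusted p 0.00403) and *C4b* of -6.54 (SE 1.499, adjusted p 0.00290). *Cfb* and *C1ra* also differed (adjusted p 0.00599 and 0.000879), with fitted values that rest on 1 and 2 counts. The difference of *C1qa* was -1.37 (SE 0.63, adjusted p 0.128), which passed without *RiboTag* IM72h library 2 (-1.65, adjusted p 0.0460) or naïve library 2 (-2.14, adjusted p 0.0218). It passed too with library total or reference gene scaling (-3.63, adjusted p 0.000376, and -2.34, adjusted p 0.0151). That of *C1qc* was -0.49 (SE 1.12, adjusted p 0.814). That of *C5ar1* turned from 0.999 (adjusted p 0.731) to -4.88 (adjusted p 0.0278) without *RiboTag* IM72h library 3. These values involve the *RiboTag* IM72h libraries, whose AY036118 share was 58.02% to 80.08% and whose *Sox10* was 0 to 11.9 and *S100b* 101 to 1077 CPM. With AY036118 left out 5 of 9 were called, and the part of the glial marker levels was not tested. The values also hold the change of line in the *ME*, which cannot be told apart from time.

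**Figure D5:**
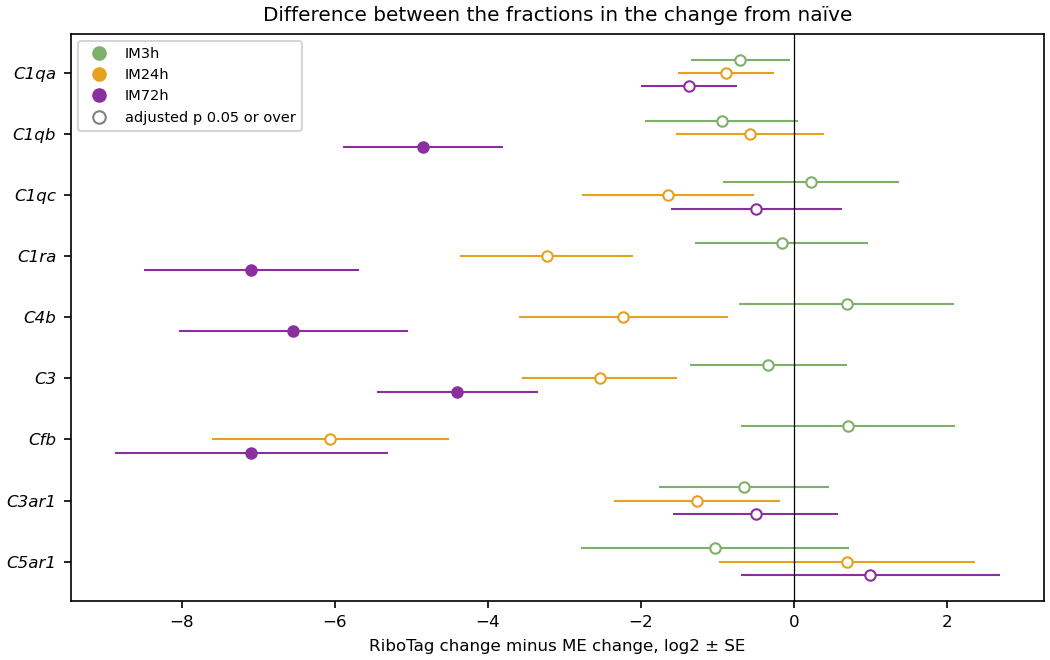
Change from naïve in the *RiboTag* fraction minus that in the *ME*, log2 with SE on the horizontal axis, for each gene on the vertical axis, coloured by time point and filled where the adjusted p was under 0.05. At IM3h the values lie around 0, and at IM72h *C1qb*, *C1ra*, *C4b*, *C3* and *Cfb* lie between -7.09 and -4.40.

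Across the 14 *ME* libraries, which share the change of time and line and their depth, the C1q chains were closely tied in log2 CPM, with Pearson's r of 0.97 for *C1qa* and *C1qc*, 0.91 for *C1qa* and *C1qb* and 0.90 for *C1qb* and *C1qc*. *C3* went with *Cfb* (r = 0.81) and *C4b* (r = 0.74) and hardly with *C3ar1* (r = 0.13), and the receptors went together (r = 0.88). Across the 15 *RiboTag* libraries *C1qa* went with neither *C1qb* (r = -0.19) nor *C1qc* (r = 0.31), and *C4b* went with *C1ra* (r = 0.90) and *C3* with *Cfb* (r = 0.75). Of the 11494 *ME* genes with a mean of at least 5 CPM that are not on the complement list, *Klhl6*, *Coa5*, *Psap*, *Mmp23* and *Clec10a* had the pattern most like *C1qa* (r of 0.982 to 0.996). *Krt7*, *Cyp2d22*, *Plod1*, *Kctd12* and *Chst12* were most like *C3* (r of 0.93 to 0.95), and *A930005H10Rik*, *Hist1h2ap*, *Pml* and *0610012G03Rik* were among those most like *Cfb* (r of 0.88 to 0.93). Of 11662 genes in the *RiboTag* fraction, *Top2a*, *Incenp*, *Gys1*, *Gm26740* and *Hoxc8* were most like *C1qa* (r of 0.89 to 0.93), *Slc25a23*, *Dctn1*, *Msrb1*, *Defa43* and *St5* most like *C3* (r of 0.85 to 0.86), and *Tmem59l*, *Suox*, *Apoe*, *Gm27029* and *Sod1* most like *Cfb* (r of 0.90 to 0.92).

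The other 45 genes of a wider complement list were read in the same fits. In the *ME* 5 of the 23 tested were higher and 5 lower at IM3h (19.3% and 13.4% of all genes), 11 of 24 higher and 3 lower at IM24h (15.6% and 13.4%), and 13 of 26 higher and 6 lower at IM72h (29.3% and 28.3%). The share of rises at IM3h was near that of all genes. Among all receptors on the list, the 2 members included, 7 of 9 tested were higher at IM3h, 8 of 9 at IM24h and 7 of 9 at IM72h, and none was lower. Apart from the 9 members, the largest rises at IM3h were of *Itgax* (2.32, SE 0.42, adjusted p 0.00209) and *Itgam* (2.08, SE 0.24, adjusted p 0.000136), integrin chains of complement receptors, and of *C5ar2* (2.08, SE 0.46, adjusted p 0.00624), a further C5a receptor. *Itgam* had 4.60 to 8.18 CPM in naïve, 21.4 to 25.7 at IM3h, 95.04 to 170.02 at IM24h and 64.4 to 94.98 at IM72h, and it rose in *RiboTag* RNA too, by 2.24 at IM3h (adjusted p 0.0252), 5.60 at IM24h (adjusted p 0.0206) and 5.70 at IM72h (adjusted p 0.0101).

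Of the other components, the falls in the *ME* at IM3h included those of *C2*, the partner of C4 (-2.29, SE 0.42, adjusted p 0.00248), and of the collectin *Colec12* (-0.58, SE 0.14, adjusted p 0.0119). At IM24h *Cfd*, factor D, an adipocyte product, fell by 3.28 (SE 0.29, adjusted p 9.07e-05), *Colec10* by 1.32 (adjusted p 0.000581) and *Cd59a*, a membrane inhibitor, by 1.25 (adjusted p 0.000705). *Itgam* (4.60) and *Itgax* (4.12) again rose most beside *C4a*, which came from 0 to 3 counts per naïve library to 0.46 to 14.5 CPM (adjusted p 0.00652). At IM72h the same 3 led the rises, with *Itgam* at 3.86 and *Itgax* at 3.47, and *Cfd* (-1.80), *Colec10* (-1.73) and *C2* (-1.60) the falls. Of the terminal pathway 1 of 7 genes was tested, and only at IM72h, *C6*, which rose by 1.80 (adjusted p 0.0285) from at most 1.82 CPM.

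In *RiboTag* RNA 2 of the 23 others tested were higher and 3 lower at IM3h (8.86% and 4.44% of all genes), 1 of 20 higher and 0 lower by edgeR at IM24h (0.497% in either direction), and 1 of 20 higher and 3 lower at IM72h (1.05% and 15.1%). At IM24h 6 of the 20 had an unadjusted p under 0.05 in either direction. At IM3h the rises were *Itgam* and *C1qbp*, a C1q binding protein (1.65, adjusted p 0.000818), and the falls *Cfd* (-1.97, adjusted p 0.0236), *Cd46* (-1.66, adjusted p 0.0332) and *Cd59a* (-1.06, adjusted p 0.0221). At IM72h the falls were *C2*, *Cd46* and *Cd55*, the latter 2 membrane inhibitors, which had 0 counts in every IM72h library against 21 to 140, 116 to 229 and 16 to 89 in the naïve libraries.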

How the data were processed

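The deposited values are expected counts (estimated counts), which the authors made from 3′ end libraries with single-end reads of 50 bases. The submitters' processing notes name cutadapt, STAR, Partek and mm10, and the methods name Ensembl release 99. Each table lists features with at least 10 counts in total. Fold changes and p-values of the authors' own comparisons, which the tables also hold, were not used. Expected counts of all transcripts with 1 gene symbol were added up, and the sums were rounded to integers.

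Groups came from the labels. Of 4 labelled *RiboTag* naïve samples 3 were in the tables, and table lines could be tied to groups but not to single samples, so libraries are numbered in table order. P-values measure the spread between these libraries, which may in part be technical. Each comparison was fitted with edgeR 4.0.16 (R 4.3.3, limma 3.58.1; TMM, filterByExpr, quasi-likelihood test) on the groups compared. *RiboTag* against *ME*, and the difference of responses, came from 1 fit of all 29 libraries over genes listed in both fractions. All tests were two-sided, and the scripts were tested on simulated data. Genes passed at an adjusted p under 0.05. Alternatives were DESeq2 1.42.0, other scalings, no filter, the study's threshold (unadjusted p under 0.05 and over 2-fold), other gene summaries and leaving out each library. Intervals of count ratios are exact and cover counting error only.

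The 9 genes, the wider complement list and the marker lists were chosen with earlier results of these data known. The 9 are always named. Of the wider list, up to 3 genes with the largest rise and 3 with the largest fall were named in each comparison with naïve mice, and group counts were given. The 5 genes most like *C1qa*, *C3* and *Cfb* were those with the highest Pearson's r of log2 CPM (prior count 2) among genes with a mean of at least 5 CPM. Some genes that these rules pick are not reported here.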

Additional observations from a re-analysis of the deposited data

Results flagged for a closer look

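Within groups of 4 libraries, 8 of the 45 groups tested had a highest or lowest library set apart from the others by Dixon's criterion, which chance meets in about 1 in 20 groups. For *Cfb* at *RiboTag* IM24h and IM72h and *C1ra* at *RiboTag* IM72h the other 3 libraries were at 0, so any count in the fourth meets the criterion and that rate does not apply. In the *ME* these were the lowest *C1qa* library of IM72h (413.5 CPM) and the highest *C3* library of IM24h (300.6 CPM). In the *RiboTag* fraction they were the highest IM72h libraries of *C1qb* (14.08 CPM), *C4b* (25.51 CPM), *Cfb* (0.4399 CPM), *C1ra* (0.8797 CPM) and *C5ar1* (42.25 CPM), and the highest IM24h library of *Cfb* (0.7554 CPM). The *RiboTag* IM72h library with the highest *C1qb*, *C4b*, *Cfb* and *C1ra* was the same one, library 2, and the *Cfb* and *C1ra* values there are 1 and 2 counts.

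The change from naïve to IM72h differed between the fractions for 5 genes by the test of the difference itself, with the lower value in the *RiboTag* fraction. The log2 differences were -4.846 for *C1qb*, -4.397 for *C3*, -6.54 for *C4b*, -7.089 for *Cfb* and -7.093 for *C1ra*, and the values of *Cfb* and *C1ra* depend on the prior count of the fit.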

How the results depend on the processing

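Of the counts of members called, 239 alternatives gave a count within 1.5 times the main one, 17 a lower and 22 a higher one. These counts were compared by size only, without regard to direction. Of single members, 2284 alternatives left the call as it was, 73 lost the call, 92 gained one and 2 reversed. A change of sign counted as a reversal only where the main or the alternative fit gave a call. The reversals were *C3* at *ME* IM72h against naïve with scaling to *Actb*, *Hsp90ab1* and *Rplp1* (-0.40 in place of 0.21) and the difference of the *C5ar1* responses at IM72h without *RiboTag* IM72h library 3 (-4.88 in place of 0.999, with -4.88 to 1.425 over all libraries left out in turn).

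Counts of members called moved as follows. With reference gene scaling *ME* IM24h against IM3h gave 2 (6 before) and *ME* IM72h against IM24h gave 2 (5 before), where the study's threshold gave 3. *RiboTag* IM24h against naïve (0) gave 2 in DESeq2, 1 with no filter and 3 at the study's threshold. *RiboTag* IM72h against naïve (3) gave 5 in DESeq2, 0 with no filter and 5 at the study's threshold. *RiboTag* IM24h against IM3h (1) gave 2 in DESeq2, 3 at the study's threshold, and 0 with the library total, with reference gene scaling and with the most abundant transcript of a gene. *RiboTag* IM72h against IM24h (0) gave 1 at the study's threshold. *RiboTag* against *ME* gave 3 in naïve mice (0 before) when only the groups compared were fitted, an alternative chosen after seeing the data, and 1 at the study's threshold. At IM3h (0) it gave 4 with only the groups compared, 2 in DESeq2, 1 with DESeq2 size factors and 2 at the study's threshold, and at IM72h (5) 8 with the library total and 8 with reference gene scaling. The difference of responses at IM24h (0) gave 2 in DESeq2, 1 with the library total and 3 at the study's threshold. The cause was not tested.

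Leaving out 1 library gave 4 to 6 calls in *ME* IM3h, 4 to 6 in *ME* IM24h and 7 to 8 in *ME* IM72h against naïve, 4 to 6 in *ME* IM24h against IM3h and 4 to 6 in *ME* IM72h against IM24h. In the *RiboTag* fraction it gave 0 to 2 at IM3h, 0 to 1 at IM24h and 0 to 4 at IM72h against naïve, with 0 without IM72h library 1, and 0 to 1 and 0 in the later steps. *RiboTag* against *ME* gave 0, 0, 3 to 6 and 5 to 6 over the successive groups, and the difference of responses 0, 0 to 2 and 5 to 6.

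Reference gene scaling shifted the all-gene median of log2 fold changes against naïve by -0.41, -0.37 and -0.60 in the *ME* and by -0.40, -1.40 and -1.67 in the *RiboTag* fraction, and the library total by -0.26, 0.64 and 0.60 and by -0.20, -0.85 and -1.74. The split of calls became 2 higher and 5 lower at *ME* IM3h (2 and 3 before) and 6 higher and 1 lower at *ME* IM72h (7 and 0 before) with reference gene scaling, and 0 higher and 4 lower at *RiboTag* IM72h (1 and 2 before) with either. No paired analysis was possible because the table lines carry no replicate numbers. Depth limits the *RiboTag* IM72h values of *Cfb* and *C1ra*, which had 1 and 2 counts in all.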

Other observations

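Other marker lists were read in the same way, against 19.3%, 15.6% and 29.3% of all *ME* genes called higher and 13.4%, 13.4% and 28.3% called lower at the successive time points. In the *ME* 6 of 7 smooth muscle genes were lower at IM24h, with sums of 22999 to 24656 CPM in naïve and 3344 to 11263 at IM24h, and 2 and 3 were lower at IM3h and IM72h. All 5 adipocyte genes were lower at IM24h and IM72h, and their sum went from 303 to 467 CPM in naïve to 85.0 to 112 and 53.8 to 112. Of 6 endothelial genes 2, 3 and 4 were higher at the successive time points, with sums of 44.0 to 46.3 CPM in naïve and 81.7 to 94.8 at IM72h. Of 8 neuronal genes 1, 2 and 3 were lower and 0, 0 and 1 higher. Of 6 epithelial genes 1 was lower at IM24h and 2 were higher at IM72h, and the sums ran from 103 to 283 CPM in naïve, 163 to 979 at IM3h, 64.2 to 141 at IM24h and 244 to 490.3 at IM72h.

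In the *RiboTag* fraction 8.86% of all genes were called higher and 4.44% lower at IM3h, 0.497% in either direction at IM24h, and 1.05% higher and 15.1% lower at IM72h. There 3, 3 and 1 of 7 smooth muscle genes were lower, 1 of 6 endothelial genes was higher at IM3h and 2 were lower at IM72h, and edgeR called no adipocyte or epithelial gene (0 at an unadjusted p under 0.05, DESeq2 calls not tabulated). The summed endothelial list had 30.6 to 47.2 CPM in *RiboTag* naïve and 56.7 to 236 at IM72h, and the adipocyte list 15.5 to 49.7 and 57.6 to 446, with no overlap in either. The glial list of 8 had 2 higher and 1 lower at IM3h, and 2 lower at IM72h, where the summed list had 168 to 1461 CPM against 1570 to 1920 in naïve. *S100b* had 101 to 1077 CPM at *RiboTag* IM72h (median 894) against a median of 532 in *RiboTag* naïve and 18.8 to 25.6 in the *ME* at IM72h, where *Sox10* had 0 to 11.9 CPM in the *RiboTag* libraries.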
